A study of Mus musculus with 22 samples.

Results

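Connexins are the proteins of gap junctions. Of the connexin genes, the 4 best known from the developing heart and its vessels, Gja1, Gja4, Gja5 and Gjc1, were chosen by name and found once each among the 54356 genes to which the deposited values of the Prdm16 series were summed. They were read in 22 bulk RNA sequencing libraries of E13.5 mouse hearts, a stage in mid-gestation. Hearts labelled as a Prdm16 conditional knockout (cKO) were set against littermate control hearts, which the labels title WT and describe as mock-manipulated. Each genotype gave 3 whole hearts, 4 isolated left ventricles and 4 isolated right ventricles. The strain of both genotypes is given as C57BL/6. Prdm16 encodes a zinc finger protein that regulates transcription, and the series concerns its role in the compact wall of the left ventricle. The Cre line or promoter behind the deletion, and the number of embryos in a library, are not given in the sources used here, and no label ties a left to a right ventricle of the same heart.

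Connexins form hexameric half-channels that dock between neighbouring cells, and the resulting channels pass current, ions and small molecules. In mammalian hearts connexin 43, from Gja1, is the main gap junction protein of working myocardium. Connexin 40, from Gja5, is used by atrial myocardium, the trabeculae and ventricular conduction system, and arterial endothelium. Connexin 45, from Gjc1, is the connexin of the early heart tube and of nodal tissue, and connexin 37, from Gja4, is best known from arterial endothelium.

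Reads assigned to transcripts numbered 38590751 to 62004017 in the whole hearts and 14508722 to 22830716 in the ventricles, so that the 4 genes rested on 258 to 21497 reads per library. Prdm16, the targeted gene, had a CPM (its reads scaled to a common library size with TMM factors) of 19.0 to 25.8 over the 11 cKO libraries and of 37.4 to 56.2 over the 11 controls, with no overlap. All 10 cardiomyocyte genes listed, among them Tnnt2, Actn2 and Ryr2, were detected in each of the 6 groups, as the tissue labels require. Among the right ventricles, control 2 differed from the rest of its group. Its 8 genes of cushion and fibroblast mesenchyme summed to 1283 TPM (the share of transcripts, a level per length), against 550.4 to 608 TPM in the others. Whole heart control 1 had the fewest reads of the whole hearts and 19459 genes detected, against 25464 to 27114 in the other 5, and stood apart in its transcript estimates for Gja1, described below. Some of the results that rest on either library are also given without it. Leaving them out raised the share of all genes with an adjusted p under 0.05 between the genotypes. Without right ventricle control 2 it rose from 10.3% to 14.5% in the right ventricle and from 25.6% to 29.2% in the left. Without whole heart control 1 it rose from 4.03% to 6.54% in the whole heart. Counts of listed genes without these libraries stand beside that general rise.

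On GRCm38, Gja1 lies on chromosome 10 from 56377330 to 56402513 on the forward strand (ENSMUSG00000050953.10) and Gja5 on chromosome 3 from 96904693 to 97077416 on the forward strand (ENSMUSG00000057123.14). Gja4 lies on chromosome 4 from 127311421 to 127314039 on the reverse strand (ENSMUSG00000050234.7) and Gjc1 on chromosome 11 from 102799579 to 102819700 on the reverse strand (ENSMUSG00000034520.14). The transcript Gja1-201, with 2 exons, took 97.2% to 99.6% of the gene's reads in every library. Gja5-201 took 93.7% to 97.5% of the reads of Gja5. A longer annotated transcript of Gja5 that starts far upstream, Gja5-203, took at most 1.59%. Gja4 has 1 transcript. For Gjc1, the split between Gjc1-201 and Gjc1-202, which differ in their first exon, ran from 1.38% to 77.1% for the first and from 0% to 77.6% for the second across libraries, and was not read further.

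Annotated start regions are shown for Gja1, Gja4 and Gja5, for each of which nearly all reads were assigned to 1 transcript. Reads were assigned to annotated transcripts, so the use of starts was not measured. A link of these sequences to the changes in the cKO was not tested. The sequences are RefSeq's 300-base windows (GRCm38.p6) on the strand of the gene, namely chr10:56377050-56377349 for Gja1, chr4:127313990-127314289 on the reverse strand for Gja4 and chr3:97032152-97032451 for Gja5. Capitals mark the matches to 5 motifs searched on both strands.
Gja1: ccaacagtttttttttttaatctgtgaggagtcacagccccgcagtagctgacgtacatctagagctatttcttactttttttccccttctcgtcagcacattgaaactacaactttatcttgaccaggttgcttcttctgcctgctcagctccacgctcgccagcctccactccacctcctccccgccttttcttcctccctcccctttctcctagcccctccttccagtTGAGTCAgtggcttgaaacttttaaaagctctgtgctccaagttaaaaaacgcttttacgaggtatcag
Gja4: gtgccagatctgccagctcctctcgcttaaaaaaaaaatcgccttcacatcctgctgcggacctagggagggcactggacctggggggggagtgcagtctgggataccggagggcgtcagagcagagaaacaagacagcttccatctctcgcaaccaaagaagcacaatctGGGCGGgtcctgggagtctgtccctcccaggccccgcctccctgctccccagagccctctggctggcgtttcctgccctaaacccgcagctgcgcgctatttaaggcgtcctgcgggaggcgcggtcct
Gja5: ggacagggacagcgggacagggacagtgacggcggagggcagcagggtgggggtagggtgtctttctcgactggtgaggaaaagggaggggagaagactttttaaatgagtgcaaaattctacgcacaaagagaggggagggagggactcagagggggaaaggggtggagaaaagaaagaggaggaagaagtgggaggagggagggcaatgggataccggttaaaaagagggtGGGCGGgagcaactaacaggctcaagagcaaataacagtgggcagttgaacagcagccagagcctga
The GENCODE transcripts begin at base 281 of the Gja1 window, base 251 of the Gja4 window and base 265 of the Gja5 window. The Gja1 window held 1 match to the AP-1 motif TGANTCA, read as TGAGTCA, at -19 from RefSeq's start, and 7.81% of 32851 promoter windows of this length hold that motif. The Gja4 window held the GC box GGGCGG at -79 and the Gja5 window held it at -17, a motif found in 35.7% of windows. None of the 3 windows held the T-box core GGTGTG (19% of windows), TATAAA (13.6%) or the NKX2-5 core CAAGTG (13.6%). These matches are letters in a window and were not tested as sites. RefSeq's table held no entry for Gjc1.

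On the TPM scale, on which genes can be set side by side, Gja1 was the most abundant of the 4 connexins and Gja4 the least abundant of them in all 6 groups once transcripts under 500 nt were left out of the sums, a choice made after the values were seen. Gja1 then averaged 167 ± 11.4 TPM in left ventricles of cKO hearts and 230 ± 10.1 TPM in those of controls (SD, n = 4 each). Gja5 averaged 139 ± 8.71 TPM in the same cKO ventricles and 155 ± 11.3 TPM in the control ventricles. With the short transcripts left in, the order of Gja1 and Gja5 in the left ventricle turned round, at 171 against 255 TPM in cKO and 233 against 277 TPM in controls. Gja5-202, a transcript of 405 nt, took 2.14% to 5.79% of the reads of Gja5 but 27% to 51% of its TPM. In whole heart control 1, Gja1-205, a transcript of 180 nt with an effective length of 7, took 0.363% of the reads of Gja1 and 217.6 of its 398 TPM. The other 2 whole heart controls had 207 and 204 TPM for Gja1. Without the short transcripts whole heart control 1 had 180.2 TPM. The tests below use reads, in which these transcripts weigh little.

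**Figure D1:**
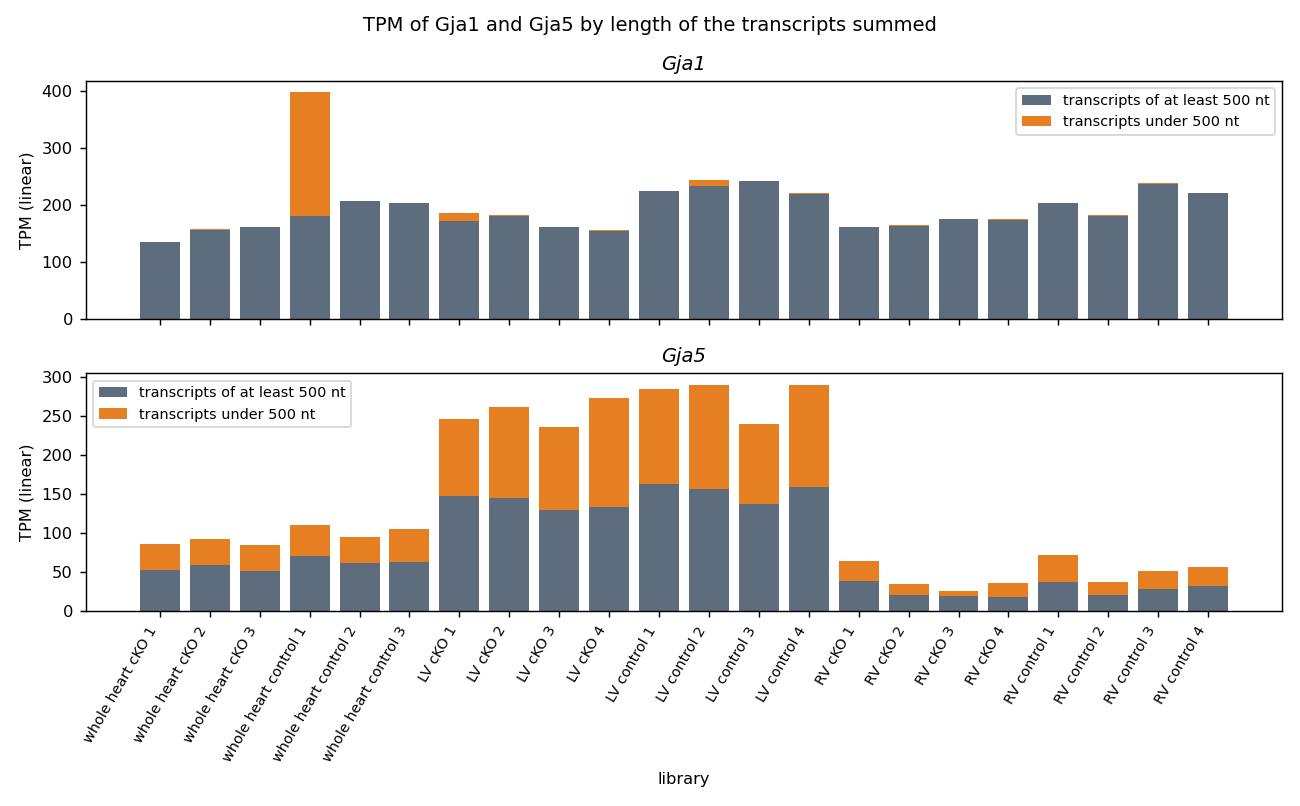
TPM of Gja1 (top) and Gja5 (bottom) in each of the 22 libraries on linear axes, with transcripts of at least 500 nt in grey and shorter ones in orange stacked on top. Short transcripts make up 217.6 TPM of Gja1 in whole heart control 1 and 27% to 51% of the TPM of Gja5 in every library.

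The order of the 6 groups differed between the genes. For Gja1 the 3 cKO groups (169 TPM in the right ventricle, 167 in the left ventricle and 152 in the whole heart) lay below the 3 control groups (211 TPM in the right ventricle, 230 in the left ventricle and 197 in the whole heart), and neighbours within either set overlapped. For Gja5 both left ventricle groups (139 TPM in cKO and 155 in control) lay above the whole hearts (54.6 TPM in cKO and 65.6 in control) and these above the right ventricles (24.4 TPM in cKO and 29.6 in control). Gjc1 ran the other way between the ventricles, highest in whole hearts (55.9 TPM in cKO and 58.6 in control), then in right ventricles (41.8 TPM in cKO and 44.5 in control) and lowest in left ventricles (37.5 TPM in cKO and 38.7 in control), though the cKO ventricles of the 2 sides overlapped. Gja4 stood at 24.2 TPM in the cKO left ventricle and at 12.3 to 15.8 TPM in the other 5 groups, whose neighbours overlapped.

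Gja1, the connexin of working myocardium, was lower in the cKO in all 3 tissues and was called in each. In whole hearts it had 266, 304 and 319 CPM in the cKO, against 377, 419 and 402 CPM in controls, and the groups did not overlap. The log2 fold change was -0.43 (SE 0.07, adjusted p = 0.0205). Gja1 was the only one of the 4 genes called in the whole heart, that is, with an adjusted p under 0.05. So 0 members were higher and 1 was lower, where 1.96% of 19160 genes tested were called higher, 2.07% lower and 4.03% in either direction, and 26.7% had groups that did not overlap. Left ventricles had 405, 443, 411 and 394 CPM in the cKO, against 566, 599, 610.2 and 553 CPM in controls. Each cKO left ventricle was thus below each control, at 1.41-fold lower on average (log2 fold change -0.49, SE 0.08, adjusted p = 2.36e-04). In right ventricles the values were 421, 430.2, 486 and 444 CPM in the cKO, against 547, 452, 650 and 582 CPM in controls. Here right ventricle control 2, at 452 CPM, lay within the cKO range, and the log2 fold change was -0.33 (SE 0.08, adjusted p = 0.0151). Without that library it was -0.41 (adjusted p = 1.83e-04), and without whole heart control 1 the whole heart value was -0.47 (adjusted p = 0.0109). The whole heart call was lost without cKO 1 (-0.36, adjusted p = 0.0572), cKO 2 (-0.45, 0.0987) or control 3 (-0.43, 0.0944), and the right ventricle call without cKO 1 (-0.30, 0.0509) or control 3 (-0.24, 0.0547). In the whole heart the call also ended with length-scaled counts (-0.89, adjusted p = 0.268) and on log2(TPM + 1) and log2(TPM + 0.1) (-0.76 on both, adjusted p = 0.331 and 0.348), and in the right ventricle with length-scaled counts (-0.32, 0.0520) and with its groups fitted alone (-0.33, 0.0704). The effect in the left ventricle minus that in the right was -0.17 (SE 0.11) and was not called (adjusted p = 0.559, 95% interval of the log2 difference -0.41 to 0.073). It ran from -0.25 without right ventricle control 3 to -0.081 without right ventricle control 2.

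**Figure D2:**
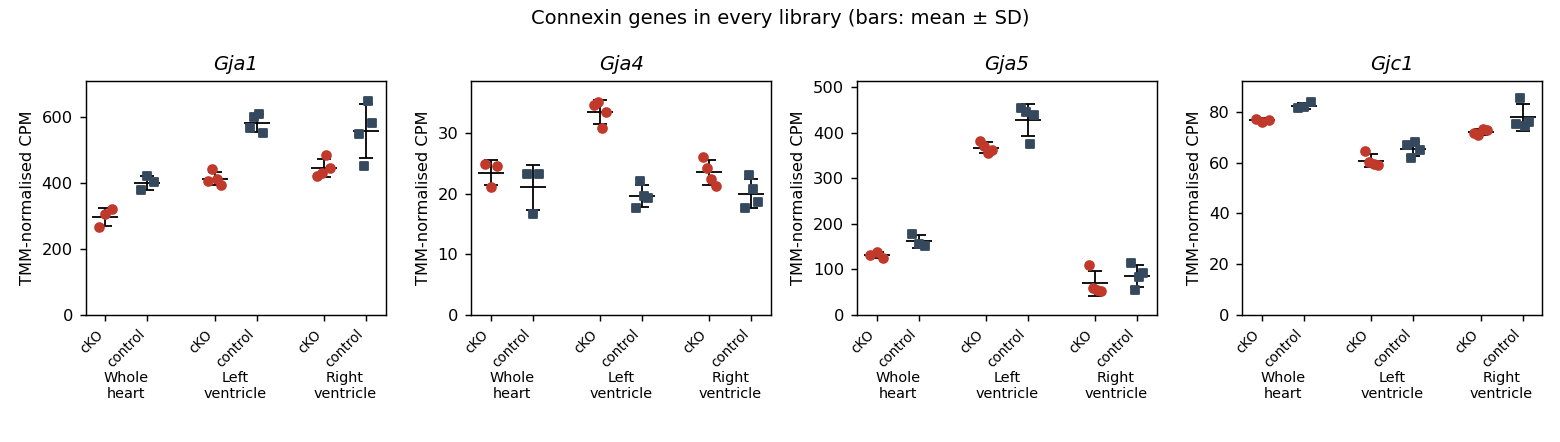
TMM-normalised CPM of the 4 connexin genes on linear axes from 0, with a point for each library, cKO (red circles) left of control (dark squares) in each tissue, and bars for the mean ± SD. Gja1 is lower in the cKO with no overlap in whole heart and left ventricle, and Gja4 separates the genotypes in the left ventricle, at 30.8 to 35.2 CPM in the cKO and 17.6 to 22.1 CPM in controls.

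Cardiomyocyte genes moved in the same direction as Gja1 in the left ventricle. Of 10 listed, 8 were lower and 0 higher there, with a median log2 fold change of -0.26 against -0.000829 over all genes tested. Tnnc1, cardiac troponin C, fell by 0.42 (adjusted p = 2.70e-05) and Pln, the inhibitor of the calcium pump SERCA2, by 0.50 (adjusted p = 3.12e-05) on the log2 scale. The summed level of the list ran from 20062 to 21113 TPM in cKO left ventricles and from 21346 to 22931 TPM in controls. Right ventricles had 0 of the 10 called by edgeR with all libraries, 3 at an unadjusted p under 0.05, and 6 lower without control 2, and sums overlapped, at 25195 to 27881 TPM in the cKO and 24070 to 26764 TPM in controls. In the whole heart 3 were lower and 5 without control 1, with sums of 16731 to 17976 TPM in the cKO and 17921 to 19608 TPM in controls. Calls over all genes also rose, to 14.5% in the right ventricle without control 2 and to 6.54% in the whole heart without control 1. As a share of the list's summed TPM, Gja1 without its short transcripts stood lower in the cKO, a ratio added after the values were seen. Actc1, cardiac actin and the largest part of this sum, averaged higher in the cKO ventricles. It had 8096 TPM in cKO and 7496 TPM in control left ventricles, and 11004 and 10126 TPM in the right. Pln and Tnnc1 fell about as far as Gja1, at -0.49, in the left ventricle. In the left ventricle the share thus does not set Gja1 apart from Pln and Tnnc1. In the right ventricle Gja1 was at -0.33, Pln at -0.16 and the median of the list at -0.10. The share of Gja1 was 0.821% ± 0.0685 in cKO left ventricles and 1.04% ± 0.0486 in controls (SD). In right ventricles it was 0.648% ± 0.0317 in the cKO and 0.812% ± 0.0615 in controls. In both ventricles the groups did not overlap (exact permutation p = 0.0286 each, two-sided, the smallest that 4 against 4 can give, and 0.0644 adjusted over 9 such ratios). The whole heart shares were 0.863% ± 0.047 in the cKO and 1.04% ± 0.0334 in controls, where 3 against 3 cannot go below the exact p of 0.1 that was found. In bulk tissue, fewer cells of a type and less RNA per cell cannot be told apart.

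Gja5, the connexin of trabeculae, conduction system, atria and arteries, was not called in any of the 3 tissues. Whole hearts had 131, 139 and 125 CPM in the cKO, against 176, 155 and 152 CPM in controls, without overlap (log2 fold change -0.29, SE 0.07, adjusted p = 0.0688). Left ventricles had 382, 371, 355 and 361 CPM in the cKO, against 453, 445, 376 and 438 CPM in controls. Of these controls 3 lay above each cKO library and control 3 lay within the cKO range (-0.22, SE 0.20, adjusted p = 0.465). The right ventricles spread widely in both genotypes, at 108, 58.2, 55.2 and 52.7 CPM in the cKO, against 113, 54.9, 83.0 and 92.4 CPM in controls. The log2 fold change there was -0.32 (SE 0.21, adjusted p = 0.397), and without cKO 1, the library at 108 CPM, it was -0.63 (adjusted p = 0.0214). That was the only 1 of the 16 fits with 1 ventricle library left out in which it was called, and the values ran up to -0.16. The whole heart value ran from -0.33 to -0.22 in the 6 such fits and was called in 0. With left ventricles fitted alone, so that the spread of the right ventricles did not enter, the left ventricle value was -0.22 with an SE of 0.05 and was called (adjusted p = 0.0109). In whole hearts DESeq2 and limma voom called Gja5 as well, with adjusted p of 0.00216 and 0.0249. The 95% interval of the log2 fold change was -0.64 to 0.20 in the left ventricle and -0.76 to 0.12 in the right.

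Among genes of the tissues that use Gja5, more trabecular, conduction and atrial genes were called higher than lower in the cKO, and the arterial genes, described with Gja4, moved in both directions. Of 9 trabecular genes 5 were higher and 1 lower in the left ventricle (median log2 fold change 0.28), and 4 were higher and 0 lower in the right (median 0.21, and 4 and 1 without right ventricle control 2). Nppa, atrial natriuretic peptide and a marker of trabecular and atrial myocardium, rose by 1.02 in the left ventricle (adjusted p = 3.00e-04) and by 1.17 in the right (adjusted p = 2.64e-04) on the log2 scale. Its levels were 9751 ± 729.7 TPM in cKO and 4501 ± 606 TPM in control left ventricles (SD, n = 4 each). Of the 13 conduction genes tested of 14 listed, 6 were higher and 2 lower in the left ventricle, and 5 were higher and 0 lower in the right (7 and 1 without right ventricle control 2). Without that library 14.5% of all genes were called in the right ventricle, against 10.3% with it. Scn10a, a sodium channel gene expressed in the conduction system, rose by 1.52 in the left ventricle (adjusted p = 5.51e-06) and 1.5 in the right (adjusted p = 1.57e-05), and Cacna2d2, a calcium channel subunit, by 1.44 in the left and 1.90 in the right. The 2 that were lower in the left ventricle were Hcn4, a pacemaker channel gene named after its values were seen, at -0.34 (adjusted p = 0.0162), and Irx3. Cpne5 and Irx3 stand on both lists. Of 10 atrial cardiomyocyte genes 5 were higher and 0 lower in each tissue, with sums of 4757 to 5610 TPM in cKO and 3288 to 3532 TPM in control left ventricles. The part of these cell types in the values of Gja5 was not tested.

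Gjc1, the connexin of early and nodal myocardium, was slightly lower in the cKO in each tissue and was not called in any. Whole hearts had 77.3, 76.0 and 76.9 CPM in the cKO, against 81.5, 82.1 and 83.9 CPM in controls, which did not overlap (log2 fold change -0.10, SE 0.04, adjusted p = 0.284). Left ventricles had 64.6, 60.1, 59.3 and 59.1 CPM in the cKO, against 66.9, 61.8, 68.2 and 65.0 CPM in controls, and the groups overlapped (-0.11, SE 0.05, adjusted p = 0.113). Right ventricles had 71.7, 70.7, 73.2 and 72.9 CPM in the cKO, against 75.2, 85.6, 74.5 and 75.9 CPM in controls. These right ventricle groups did not overlap, with the highest control value, 85.6 CPM, in control 2 (-0.11, SE 0.05, adjusted p = 0.166, and -0.06 without that library). Without right ventricle control 2, which enters the shared ventricle fit, the left ventricle value was -0.11 and was called (adjusted p = 0.0424). The 3 intervals of the log2 fold change reached at most -0.21 on the low side.

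Gja4, the arterial connexin, was the member that was higher in the cKO, and the left ventricle was where it was called. Left ventricles had 34.6, 35.2, 30.8 and 33.4 CPM in the cKO, against 17.6, 22.1, 19.5 and 19.2 CPM in controls. The lowest cKO left ventricle lay well above the highest control, and Gja4 was 1.70-fold higher (log2 fold change 0.77, SE 0.09, adjusted p = 5.51e-06). With it, the left ventricle had 1 member called higher and 1 lower, where 12.3% of 16448 genes were called higher, 13.4% lower and 25.6% in either direction, and 29% had groups that did not overlap. In right ventricles the values were 26.1, 24.2, 22.4 and 21.3 CPM in the cKO, against 17.5, 23.0, 20.7 and 18.7 CPM in controls, and the groups overlapped through control 2. There the log2 fold change was 0.23 (SE 0.09, adjusted p = 0.110), and 0.31 (adjusted p = 0.0204) without right ventricle control 2. The right ventricle thus had 0 members called higher and 1 lower with all libraries, where 6.12% of genes were called higher, 4.19% lower and 10.3% in either direction, and 12.7% had groups that did not overlap. Whole hearts had 24.8, 21.0 and 24.5 CPM in the cKO, against 23.2, 16.7 and 23.2 CPM in controls, which overlapped (0.16, SE 0.14, adjusted p = 0.611, 95% interval -0.16 to 0.47). The whole heart value ran from 0.017 without control 2 to 0.24 without control 3 and was not called without any single library.

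The effect on Gja4 was larger in left ventricles, by 0.54 over that in right ventricles on the log2 scale (SE 0.12, adjusted p = 0.0389). It was the only member called for this difference, which was called for 1.43% of genes, 0.462% with a higher and 0.973% with a lower effect on the left. The call depended on the fit. The value was 0.46 to 0.60 when any 1 of the 16 ventricle libraries was left out, and the adjusted p was then 0.0209 to 0.0882. The call was lost in 10 of these 16 fits, those without left ventricle cKO 1, 2 or 4 or control 1, 3 or 4, or without right ventricle cKO 2, 3 or 4 or control 3, with adjusted p of 0.0602 to 0.0882. It also ended with length-scaled counts (0.57, adjusted p = 0.142), on log2(TPM + 1) and log2(TPM + 0.1) (0.61 and 0.63, adjusted p = 0.147 and 0.170) and with all 22 libraries in one model (0.54, adjusted p = 0.0819). These fits take no account of a pairing of left with right ventricles, and with a block for each genotype and replicate number the value was 0.54 (adjusted p = 0.00670). Among the 12 arterial genes listed, 2 differed in the same test. Efnb2, the arterial ephrin ligand, had a larger effect in the left ventricle, by 0.52 (adjusted p = 0.00130), and Jag1, a Notch ligand, had a lower one, by -0.45 (adjusted p = 0.0295).

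**Figure D3:**
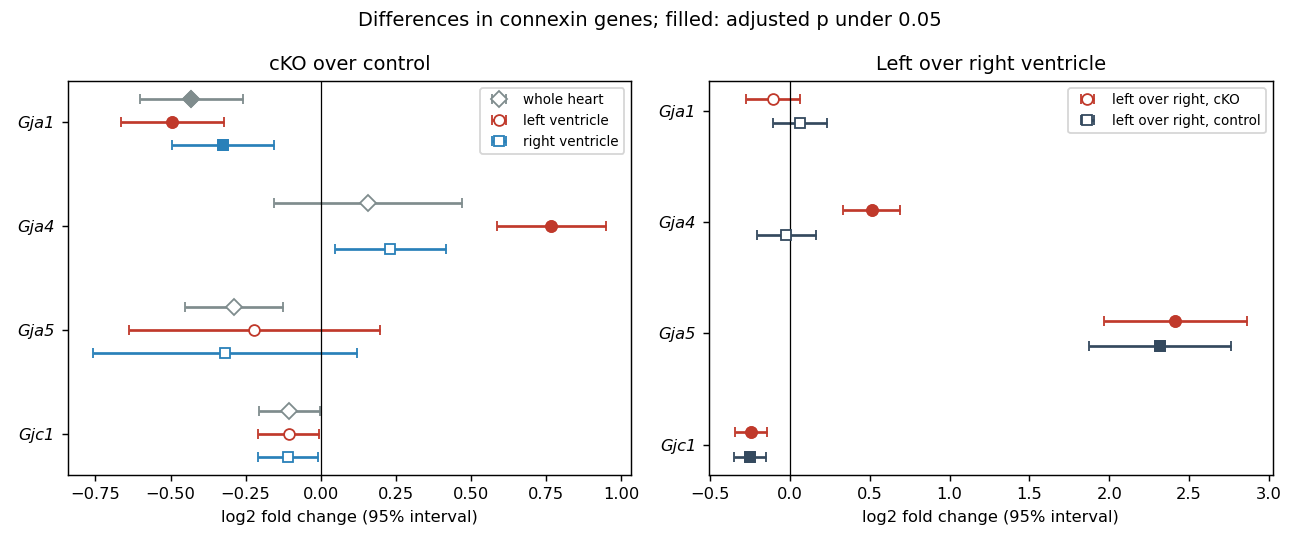
Log2 fold changes of the 4 connexin genes with 95% intervals, cKO over control in each tissue (left panel) and left over right ventricle in each genotype (right panel), with filled symbols for an adjusted p under 0.05. Gja1 lies below 0 in all 3 tissues, Gja4 is filled in the left ventricle at 0.77, and Gja5 lies at 2.42 and 2.32 in the right panel.

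Endothelial genes also rose in the cKO left ventricle, by less than Gja4, while arterial genes moved in both directions. Of 12 pan-endothelial genes 7 were higher and 1 lower there (median 0.18), among them Eng, a TGF-beta co-receptor, at 0.37 (adjusted p = 1.15e-05), and the angiopoietin receptor genes Tek at 0.36 (adjusted p = 1.18e-05) and Tie1 at 0.33 (adjusted p = 1.60e-05). Cldn5, a claudin of endothelial tight junctions, fell by 0.73 (adjusted p = 0.00149). In the right ventricle 2 were higher, Tie1 and Eng, and 1 lower, Cldn5. Of the 12 arterial genes 2 were higher and 3 lower in the left ventricle (4 and 3 in the fit without right ventricle control 2), and 0 higher and 1 lower in the right. Efnb2 rose by 0.59 in the left ventricle (adjusted p = 2.46e-07), with 24.7 ± 1.66 TPM in the cKO and 15.9 ± 1.13 TPM in controls (SD, n = 4 each). Bmx, an arterial endothelial kinase, rose by 0.43 (adjusted p = 0.00229), whereas Jag1 fell by 0.45 (adjusted p = 1.70e-04), the chemokine receptor gene Cxcr4 by 1.32 (adjusted p = 0.00338) and Sema3g, an arterial semaphorin, by 0.76 (adjusted p = 0.00705). In whole hearts 1 endothelial gene, Tek, was higher (2 without control 1), and 0 of 12 arterial genes were called by edgeR, with 7 at an unadjusted p under 0.05, or 1 higher and 1 lower without control 1. Sema3g and Tek in the whole heart were named after their values were seen.

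Summed endothelial levels did not overlap between genotypes in any tissue. They ran from 854 to 952 TPM in cKO and from 698 to 745 TPM in control left ventricles, from 754 to 795 TPM in cKO and from 674 to 724 TPM in control right ventricles, and from 724 to 805 TPM in cKO and from 680.5 to 709 TPM in control whole hearts, with none of the 12 genes at 0. Gja4 stood at 2.67% ± 0.223 of this sum in cKO left ventricles and at 1.81% ± 0.235 in controls (SD), and the groups did not overlap (exact permutation p = 0.0286, two-sided, 0.0644 adjusted over 9 ratios). Against the summed arterial genes its share was 14.9% ± 0.996 in cKO left ventricles and 9.29% ± 1.32 in controls, with the same exact p values. In right ventricles the shares overlapped, at 1.88% ± 0.226 of the endothelial sum in the cKO and 1.76% ± 0.254 in controls (exact permutation p = 0.457). Whole hearts overlapped too, at 2.07% ± 0.26 in the cKO and 1.79% ± 0.235 in controls (exact permutation p = 0.3). Gja4 is also known from smooth muscle and pericytes. The 8 genes listed for these cells summed to 656 to 811 TPM in cKO and 746 to 855 TPM in control left ventricles, and none of them was at 0 in any group. Tagln, a smooth muscle actin-binding protein, rose by 0.87 in the left ventricle (adjusted p = 0.0132), and Cspg4, a pericyte proteoglycan, fell by 0.56 (adjusted p = 2.35e-06) and Acta2, smooth muscle actin, by 0.65 (adjusted p = 1.84e-04). Most of the summed level came from Acta2, at 304 TPM in cKO and 473 TPM in control left ventricles, Cnn1 (231 and 201 TPM) and Tagln (166 and 87.4 TPM). Myh11, at 0.073 and 0.089 TPM, and Rgs5, at 0.17 and 0.57 TPM, were near the floor there. The part of smooth muscle cells and pericytes in the level of Gja4 was not tested.

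**Figure D4:**
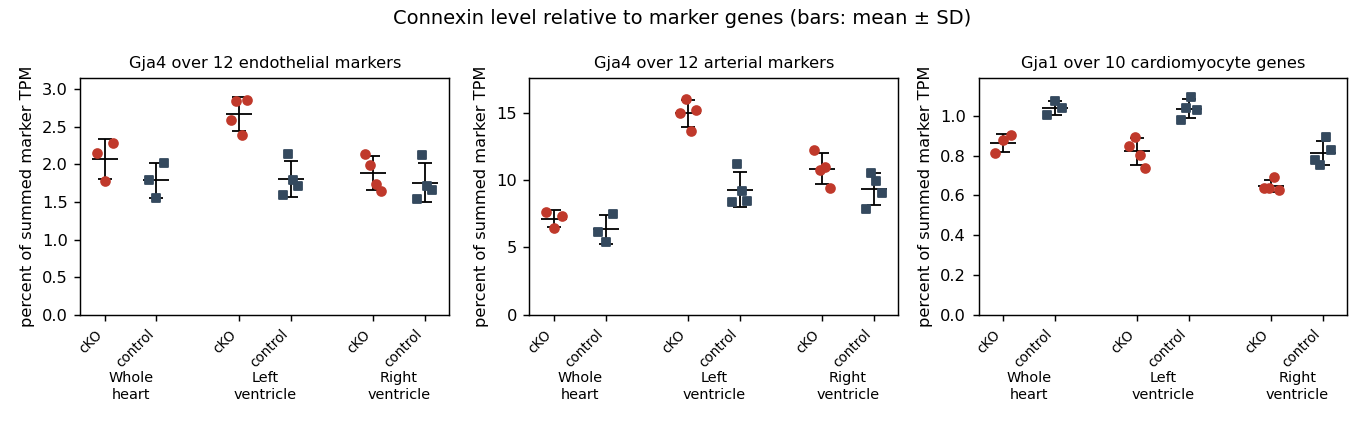
Gja4 as a percent of the summed TPM of 12 endothelial genes (left) and of 12 arterial genes (middle), and Gja1 without its short transcripts as a percent of 10 cardiomyocyte genes (right), with a point for each library, cKO (red circles) left of control (dark squares), and bars for the mean ± SD. The left ventricle groups do not overlap in any of the 3 panels, at 2.67% against 1.81%, 14.9% against 9.29% and 0.821% against 1.04%.

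Between the ventricles, Gja5 had the widest difference of the 4 connexins. It was 5.33-fold higher in left than in right ventricles of cKO hearts (log2 fold change 2.42, SE 0.21, adjusted p = 4.50e-07) and 4.99-fold higher in left than in right ventricles of controls (2.32, SE 0.21, adjusted p = 1.34e-06). The lowest left ventricle, at 355 CPM, lay far above the highest right ventricle, at 113 CPM. Left and right libraries did not overlap for 34.2% of genes in the cKO and 20.7% in controls. Gjc1 was lower on the left by 0.25 in cKO hearts (SE 0.05, adjusted p = 7.76e-04) and also by 0.25 in controls (SE 0.05, adjusted p = 0.00128). On the TPM scale these differences of Gjc1 were -0.12 in the cKO and -0.13 in controls and were not called. Gja4 was higher on the left by 0.51 in cKO hearts (SE 0.08, adjusted p = 2.24e-04) and differed by -0.02 in controls (SE 0.09, adjusted p = 0.887, 95% interval -0.21 to 0.16). Gja1 differed by -0.11 in cKO hearts (adjusted p = 0.338) and by 0.06 in controls (adjusted p = 0.648). In the cKO 2 members were thus called higher and 1 lower on the left, where 14.5% of genes were called higher, 18.3% lower and 32.8% in either direction. In controls 1 was higher and 1 lower, where 9.02% were called higher, 12% lower and 21% in either direction. The cKO and control values differ by the same amounts as the effects of the cKO in the left and right ventricle, so that the test of Gja4 above also holds for this pair.

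Among factors linked to connexin genes in the heart, Tbx5 and Hand1 were also much higher on the left in both genotypes. Of the 18 listed, 6 were called higher and 1 lower on the left in cKO hearts, or 33.3% and 5.56%, where 14.5% and 18.3% of all genes were. In controls 4 were higher and 2 lower, or 22.2% and 11.1%, where 9.02% and 12% of all genes were. Tbx2 was higher on the left by 1.40 in cKO hearts (adjusted p = 0.00234). Tbx5, a T-box factor that in mice activates Gja5, was higher on the left by 1.45 in cKO hearts and by 1.62 in controls, and Hand1, a basic helix-loop-helix factor of the left ventricle, by 2.14 in cKO hearts and by 2.07 in controls. Against controls, Tbx5 rose in the cKO by 0.72 in the left ventricle (adjusted p = 1.75e-04), 0.89 in the right (adjusted p = 1.35e-04) and 0.68 in the whole heart (adjusted p = 0.00116). It had 48.0 ± 0.778 TPM in cKO and 28.3 ± 1.49 TPM in control left ventricles, and 16.3 ± 3.9 TPM in cKO and 8.38 ± 1.66 TPM in control right ventricles (SD, n = 4 each). Of the 18 regulators listed 3 were higher and 2 lower in the cKO left ventricle (median -0.03), and 1 was higher and 0 lower in the right (2 and 2 without right ventricle control 2). In the left ventricle that is 16.7% and 11.1%, near the 12.3% and 13.4% of all genes. In the right it is 5.56% and 0%, where 6.12% and 4.19% of all genes were called. Id2, an inhibitor of helix-loop-helix factors that is used in the conduction system, rose by 0.64 in the left ventricle (adjusted p = 0.00185). Notch1, a receptor of arterial and endocardial endothelium, rose by 0.18 (adjusted p = 0.00552). Irx3, an Iroquois factor that in mice acts on Gja5 and Gja1 in the conduction system, fell by 0.42 (adjusted p = 0.00202). Hopx, named after its values were seen, fell by 0.26 in the left ventricle (adjusted p = 0.0204). Among regulators of the right ventricle, Tbx18, at -0.29 (adjusted p = 0.102), Nkx2-5, at 0.24 (adjusted p = 0.109), and Irx5, at 0.31 (adjusted p = 0.132), had the next smallest p and were not called.

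Partners of connexin 43 at the intercalated disc, the junction where cardiomyocytes meet end to end, moved in both directions. Of 24 listed, 5 were higher and 9 lower in the left ventricle, that is 20.8% and 37.5%, where 12.3% and 13.4% of all genes were (median -0.04). In the right ventricle 3 were higher and 1 lower, or 2 and 5 without right ventricle control 2, and in the whole heart 2 and 3, or 2 and 6 without control 1. Over all genes 10.3% were called in the right ventricle, or 14.5% without control 2. In the whole heart 4.03% were, or 6.54% without control 1. Ank3, the ankyrin that anchors sodium channels at the disc, fell by 0.34 in the left ventricle (adjusted p = 3.84e-05) and 0.28 in the right (adjusted p = 6.18e-04). Dsp, desmoplakin of the desmosome, fell by 0.29 in the left ventricle (adjusted p = 2.85e-04) and Cav3, the muscle caveolin, by 0.42 (adjusted p = 6.86e-04). Des, the intermediate filament desmin, rose in both ventricles, by 0.36 (adjusted p = 2.83e-04) in the left and 0.36 (adjusted p = 6.45e-04) in the right. Dsg2, a desmosomal cadherin, rose by 0.24 (adjusted p = 0.0306) in the right ventricle. Tjp1, whose product binds the tail of connexin 43 and which was named after its values were seen, was at 0.04 in the left ventricle (adjusted p = 0.449).

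**Figure D5:**
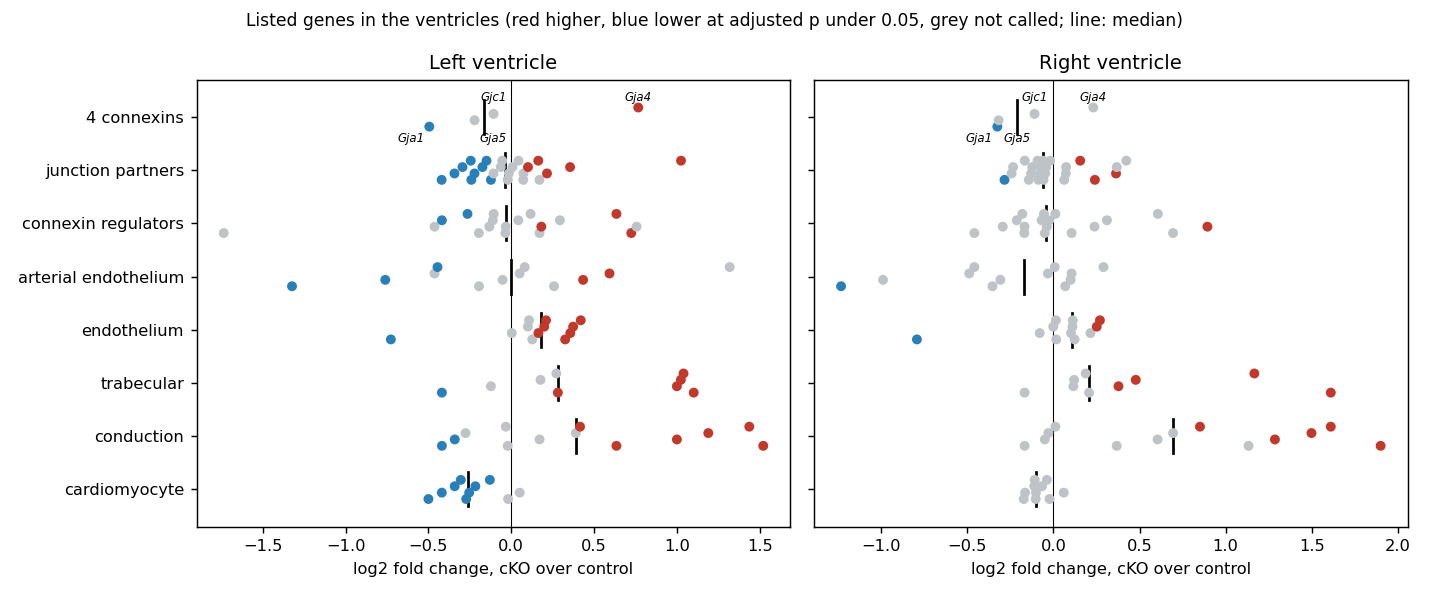
Log2 fold changes, cKO over control, of the 4 connexins and of 7 gene lists in the left ventricle (left panel) and right ventricle (right panel), with a point for each gene tested, red where higher and blue where lower at an adjusted p under 0.05, and a black line at each list's median. The medians of the left panel run from -0.26 for cardiomyocyte genes to 0.39 for conduction genes, and the 4 connexins lie on both sides of 0.

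The rest of the connexin family was scarce in these hearts. Of 16 other connexin genes, Gja3 and Gjd3 reached a mean of 1 TPM in some group. Gja3, which encodes connexin 46 and is best known from the lens, averaged 7.43 ± 3.66 TPM in cKO and 7.92 ± 2.28 TPM in control left ventricles, and 11.2 ± 2.29 TPM in cKO and 11.3 ± 2.03 TPM in control right ventricles (SD, n = 4 each). It was lower on the left by 0.98 in cKO hearts (adjusted p = 3.20e-06) and by 0.74 in controls (adjusted p = 1.07e-04), and 0 of the 7 others tested in the whole heart and 0 of the 2 tested in each ventricle were called between the genotypes by edgeR, with 0 at an unadjusted p under 0.05. Gjd3 reached 1.19 TPM in cKO and 1.03 TPM in control whole hearts. Pannexins form related channels that do not join cells. Panx1 averaged 13.8 ± 1.59 TPM in cKO and 13.0 ± 2.71 TPM in control left ventricles and was not called. Panx2 fell by 0.74 in the left ventricle (adjusted p = 3.04e-06), with 2.80 ± 1 TPM in the cKO and 4.71 ± 1.35 TPM in controls. Panx2 was in the right ventricle at -0.18 (adjusted p = 0.305), and the difference between the ventricles was -0.56 (adjusted p = 0.0199).

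Genes with a course like that of a connexin over the 16 ventricle libraries were found by the root mean square (RMS) difference of their log2 CPM, each centred on its own mean, among 11087 protein-coding genes. The libraries share their depth and composition, so the values are descriptions. Nearest to Gja1 were Pla2g16, Nadk2, Scin, Tnni3k and Acat1, at RMS differences of 0.06 to 0.10, where Gja1 itself varied with an RMS of 0.24. Pla2g16 was at -0.47 in the left ventricle and -0.34 in the right, and Tnni3k, a cardiomyocyte kinase, was at -0.49 in the left ventricle and -0.27 in the right. Nearest to Gja4, at 0.13 to 0.14 with an RMS of 0.33 for Gja4, were Creb3l2, Atp8a2, Abca5, Arhgef26 and Taok3. For Gja5, with an RMS of 1.25, the nearest gene was Hand1, at 0.38, followed by Cdo1, Lmntd1 and Gtsf1 at 0.46 to 0.51. Hand1, like Gja5, was not called in either ventricle, at -0.11 in the left (adjusted p = 0.423) and -0.18 in the right (adjusted p = 0.343). For Gjc1, with an RMS of 0.15, they were Grb10, Rala, Lmnb1, Nop56 and Ilk at 0.06 to 0.07.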

How the data were processed

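RNA from TRIzol extraction was sequenced from stranded mRNA libraries, per the labels' protocols. The authors deposited, per library, estimated counts and TPM per transcript, from Salmon 1.2.1 on GRCm38.p6 per the submitters' processing notes, which also name DESeq2 1.22.2. Both were summed to genes of GENCODE M21: 140137 of 140658 transcripts matched, and the rest held at most 0.204% of reads. The estimated counts were rounded and tested with edgeR 4.0.16 (R 4.3.3; TMM, filterByExpr, quasi-likelihood F test). P-values were adjusted by Benjamini-Hochberg over all genes tested, at a threshold of 0.05. The 6 whole hearts were 1 fit of 19160 genes and the 16 ventricles another of 16448 genes, and the 4 connexins passed the filter in both. The deposited TPM were summed for levels and used on the log2 scale as an alternative. Shares used exact permutation tests (scipy 1.17.1). The depth limits precision least for Gja1 and most for Gja4, which had as few as 258 reads. The steps were tested on simulated data.

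The members and gene lists were chosen with earlier results of these data known. From each list, up to 4 genes with the smallest p in each ventricle were named, besides those said to be named later. A few genes that the rules name are not reported here. No label says that libraries come from separate embryos, so p-values measure the spread between these samples. No library pair of a group agreed within sampling noise. Replicate numbers are shared between groups. The deviations of same-numbered left and right ventricles from their group means had correlations of 0.283, 0.104, 0.279 and 0.253 in the cKO. Left ventricle cKO 2, at 0.104, was closer to a right ventricle of another number. No label gives a pairing, and these values do not settle it. The main ventricle fit holds 4 group means and no pair term, and fits with the replicate number as a block were alternatives.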

Additional observations from a re-analysis of the deposited data

Results flagged for a closer look

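In 3 groups of 4 libraries, 1 library lay further from its neighbours than Dixon's 95% limit for its share of the group's range. Gja5 on the TPM scale was one, in left ventricle control 3, at 240.0 TPM against 285 to 291 TPM in the other 3 controls (gap 0.888 of the range). Gja5 in CPM was another, in right ventricle cKO 1, at 108 CPM against 52.7 to 58.2 CPM in the other 3 cKO libraries (0.902). Gjc1 in CPM was the last, in right ventricle control 2, at 85.6 CPM against 74.5 to 75.9 CPM in the other 3 controls (0.871). Over 16 pairs of gene and ventricle group on 2 scales, chance is expected to pick out about 1 in 20.

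The difference between the ventricles in the effect of the cKO on Gja4, larger on the left by 0.535 on the log2 scale, came from a test of the difference itself and is given with its limits above.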

How the results depend on the processing

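Leaving out 1 library at a time kept the direction and the call in 315 of 344 values, and the other alternatives in 288 of 316. In the whole heart, Gja5 was called without the filter on low counts (-0.28), with DESeq2 (-0.29) and with limma voom (-0.23), and Gja1 was not with length-scaled counts (-0.89) or on log2(TPM + 1) and log2(TPM + 0.1) (-0.76 on both), the scales on which Gja1-205 weighs in control 1. In the left ventricle, Gja5 with its groups alone (-0.22) and Gjc1 with voom (-0.11) were called. In the right ventricle, Gja4 was called with voom (0.26), and Gja1 was not with length-scaled counts (-0.32) or its groups alone (-0.33). For the difference between the ventricles, Gja4 was not called with length-scaled counts (0.57), on the TPM scales (0.61 and 0.63) or with all 22 libraries in one model (0.54), and Gjc1, at 0.00, turned to -0.034 with voom and -0.059 with length-scaled counts. Between left and right, Gja4 in controls turned to 0.028 with library totals, 0.038 with voom, 0.042 with length-scaled counts, and 0.10 on both TPM scales. Gja1 in the cKO turned to 0.0097 and 0.0098 on the TPM scales, where Gjc1 (-0.12 in the cKO and -0.13 in controls) was not called. The cause was not tested except where stated.

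Genes called in the whole heart, 773, became 1727 with DESeq2, 1777 with voom, 135 with length-scaled counts, 82 and 71 on the TPM scales, 2012 with all libraries in one model and 218 with a replicate block. In the left ventricle, 4216 became 2683 with length-scaled counts and 2637 and 2575 on the TPM scales. In the right ventricle, 1696 became 831, 721 and 741 in the same order, and 1052 with its groups alone. For the difference, 236 became 467 with DESeq2, 414 with voom, 64 with length-scaled counts and 46 and 27 on the TPM scales. Left against right, 5398 became 3207 with length-scaled counts in the cKO, and 3462 became 1691 with them and 1387 and 1411 on the TPM scales in controls.

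With 1 library left out at a time, genes called ran from 184 to 1292 in the whole heart, 3539 to 4860 in the left ventricle, 1290 to 2418 in the right ventricle, 125 to 358 for the difference, 4489 to 6005 for left against right in the cKO and 2583 to 4482 in controls. Log2 fold changes of Gja1 ran from -0.49 to -0.36 in the whole heart, -0.25 to -0.081 for the difference, -0.41 to -0.24 in the right ventricle, and -0.027 to 0.14 left against right in controls. Those of Gja4 ran from 0.017 to 0.24 in the whole heart, 0.46 to 0.60 for the difference, 0.18 to 0.31 in the right ventricle and -0.088 to 0.051 left against right in controls. Gja5 ran from -0.63 to -0.16 in the right ventricle and -0.065 to 0.41 for the difference, and Gjc1 from -0.14 to -0.086 in the left ventricle and -0.047 to 0.023 for the difference.

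A replicate block changed no call of the 4 genes, with Gja1 at -0.43 (adjusted p = 0.0397) in the whole heart and Gja4 at 0.53 (adjusted p = 0.0289) for the difference, or 0.54 (adjusted p = 0.00670) with a block for each genotype and number. Correlations of same-numbered cKO and control libraries were 0.0649, -0.187 and 0.0359 in whole hearts. They ran from -0.0338 to 0.220 in left ventricles and from -0.0633 to 0.180 in right ventricles. Between same-numbered left and right control ventricles they ran from -0.120 to 0.192. The highest of each of these ventricle ranges exceeded the lowest of the cKO left and right pairs, 0.104. The depth limits Gja4 most, and TPM of Gja1 and Gja5 depend on transcripts under 500 nt.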

Other observations

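As a share of the summed TPM of the 4 connexins, without transcripts under 500 nt, the mix differed by tissue and genotype. Gja1 made up 45.4% in cKO and 52.7% in control left ventricles, and 67.7% in cKO and 70.8% in control right ventricles. Gja5 made up 37.9% in cKO and 35.4% in control left ventricles, and 9.73% in cKO and 9.93% in control right ventricles. Gja4 made up 6.57% in cKO and 3.01% in control left ventricles, with library ranges of 5.91% to 7.17% and 2.69% to 3.38% that did not overlap. In right ventricles Gja4 made up 5.80% in cKO and 4.17% in controls, with ranges that overlapped. These shares were not tested.

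Other cell types of the heart wall moved beside the connexins, and their part in the connexin values was not tested. Of 8 epicardial genes 5 were higher in the cKO left ventricle and 1 in the right, and their sums ran from 235 to 258 TPM in cKO and 177 to 192 TPM in control left ventricles. Of 5 endocardial genes 3 were higher in each ventricle. Of 6 genes of ventricular cardiomyocytes, among them Myl2 and Myh7, 6 were lower in the left ventricle and 5 in the whole heart, and 0 were called in the right ventricle by edgeR, with 2 at an unadjusted p under 0.05. Of 10 erythroid genes 1 was higher in the left ventricle and 5 in the right, with a median log2 fold change of 1.02 in the right, and 1 was higher in the right without right ventricle control 2. Their sums overlapped in both, at 37266 to 93010 TPM in cKO and 27569 to 52078 TPM in control left ventricles, and at 32122 to 61348 TPM in cKO and 13830 to 32910 TPM in control right ventricles.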
